A study of Homo sapiens with 8 samples.

Results

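The measurements describe how PML::RARA peaks fall on the genes of innate sensing and NF-kB signalling in U937-PR9 cells. The genes were chosen by name, with earlier results of these data known. The list of 50 names covers 49 genes, since TMEM173 is the older symbol of STING1, and a peak was counted when the authors had labelled it with one of these symbols. Of the 15412 peaks in the list, 7169 carried a gene label, and 27 of these carried the label of a member. The other 7142 labelled peaks served as the comparison. U937-PR9 is 1 monocytic cell line that carries a PML::RARA transgene under a zinc-inducible promoter, so every library shares the transgene. In the study, cells received 100 μM ZnSO4 (induced) or sterile water (uninduced) for 5 h, and nuclei were incubated with 4 µg of an antibody to PML::RARA or to RARA. Each of the 4 combinations had 2 replicates, which gave 8 libraries. The list described here holds peaks found in both induced anti-PML::RARA libraries, and the uninduced and anti-RARA libraries were not analysed here. Because zinc and PML::RARA were given together, their parts in a peak cannot be told apart.

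In Cut&Run, an antibody brings a nuclease to its target in isolated nuclei, and the released DNA is sequenced. Each peak has a width in base pairs and signal values that were read as a total summed over the peak and a height. The height is the largest signal inside the peak. The apex is the midpoint of the interval with the largest signal. Its distance is given to the nearest annotated start site of the gene, or to that of the Ensembl canonical transcript where the text says canonical. Each peak has a single value with no replicate values behind it, so the replicate spread could not be computed and no test was run. Sequencing depth is unknown. The intervals given for shares are 95% Wilson intervals, which cover the counting of genes or peaks only, and those given for medians cover the spread between peaks, which are not replicates. Among marker genes, 6 of 9 myeloid ones had a labelled peak (CD14, CD68, CSF1R, ITGAM, MPO and SPI1), and CD33, LYZ and FCGR1A had none. The counts were 0 of 4 for T cell markers, 1 of 4 for B cell markers (CD79A) and 0 of 3 for erythroid markers. For comparison, 30.0% of protein-coding genes had a peak under their own label. A peak at a marker does not show that the gene is expressed, so these counts do not check the cell type.

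Toll-like receptors, NOD proteins and cytosolic sensors recognise microbial molecules, and adaptors such as MYD88 pass the signal to IRAK and TRAF proteins. These activate the IKK kinases, which release NF-kB from inhibitory proteins of the I-kappa-B family so that it can enter the nucleus and bind kappa-B sites in DNA. Many genes of the inhibitors and of the NF-kB subunits are themselves NF-kB targets, which gives the pathway its feedback. Monocytes and macrophages rely on it for their response to bacteria and viruses.

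Kappa-B sites are shown first, because many genes of the inhibitors and NF-kB subunits are known NF-kB targets. The 10-base kappa-B consensus was looked for, on either strand, in the peaks under a member's own label except that of TAB1 and, for genes without one, in peaks with an apex at most 1 kb from a start. For inhibitor and subunit genes with a match in their peak, the match closest to the canonical start is printed with 10 bases on each side, and not every such gene is shown. The sequences run 5′ to 3′ on the strand of the gene, are read from hg19, and have the kappa-B match in capitals.
NFKBIA, chr14:35874017-35874046, minus strand: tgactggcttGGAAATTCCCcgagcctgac
NFKBIB, chr19:39390572-39390601, plus strand: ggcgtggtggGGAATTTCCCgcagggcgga
NFKBIZ, chr3:101568109-101568138, plus strand: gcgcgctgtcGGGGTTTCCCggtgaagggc
BCL3, chr19:45251957-45251986, plus strand: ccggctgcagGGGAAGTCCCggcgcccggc
TNFAIP3, chr6:138188331-138188360, plus strand: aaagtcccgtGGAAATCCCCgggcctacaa
TNIP1, chr5:150460618-150460647, minus strand: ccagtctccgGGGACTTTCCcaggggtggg
NFKB2, chr10:104155431-104155460, plus strand: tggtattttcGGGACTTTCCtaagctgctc
REL, chr2:61108653-61108682, plus strand: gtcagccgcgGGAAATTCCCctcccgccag
RELA, chr11:65430220-65430249, minus strand: cggctgtggcGGGAGCCCCCgcgccgcttt

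Upstream DNA of NFKBIA and TNFAIP3, whose starts had high peaks, is printed next, a choice made after the heights were seen. Each stretch lies inside the peak, ends where the gene's transcripts begin and has the kappa-B matches in capitals. The stretch of NFKBIA holds a single match, and that of TNFAIP3 holds a pair of neighbouring ones. Stretches taken in the same way at STING1 and MYD88, under peaks of height 55 and 47, held no kappa-B match and are not printed.
NFKBIA, chr14:35873956-35874205, minus strand: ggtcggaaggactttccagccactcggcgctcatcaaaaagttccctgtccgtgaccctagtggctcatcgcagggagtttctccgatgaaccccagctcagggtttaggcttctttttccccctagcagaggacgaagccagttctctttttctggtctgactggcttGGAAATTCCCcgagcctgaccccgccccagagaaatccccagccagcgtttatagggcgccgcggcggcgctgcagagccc
TNFAIP3, chr6:138188146-138188350, plus strand: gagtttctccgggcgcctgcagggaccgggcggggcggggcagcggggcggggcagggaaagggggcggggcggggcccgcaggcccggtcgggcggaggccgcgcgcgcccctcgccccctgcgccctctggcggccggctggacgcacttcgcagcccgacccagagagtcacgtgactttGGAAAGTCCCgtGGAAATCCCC

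The first question was which of these genes had a PML::RARA peak. Of the 49 genes, 23 had at least 1 peak under their own label, which is 46.9% (33.7 to 60.6%), beside 30.0% of 20090 protein-coding genes. Another 7 genes had a peak over an annotated start site that carried another label or none. By position rather than label, 27 genes had an apex within 1 kb of a start site, which is 55.1% (41.3 to 68.1%), beside 39.3% of coding genes. For 34 genes a peak overlapped the gene or its 10 kb flanks, which is 69.4% (55.5 to 80.5%), beside 53.3% of coding genes. By role, 7 of 9 sensing genes and 5 of 8 inhibitors had a peak under their own label. So did 3 of 5 NF-kB subunits, 3 of 5 IKK-type kinases and 3 of 10 IRAK, TRAF and TAB genes, TAB1 included. For Toll-like receptors the count was 2 of 8 and for receptor adaptors 0 of 4. The share over coding genes is the 30.0% given above. These counts by role are a description and were not tested. Since the genes were chosen with earlier results of these data known, no excess over coding genes can be drawn from the shares.

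**Figure D1:**
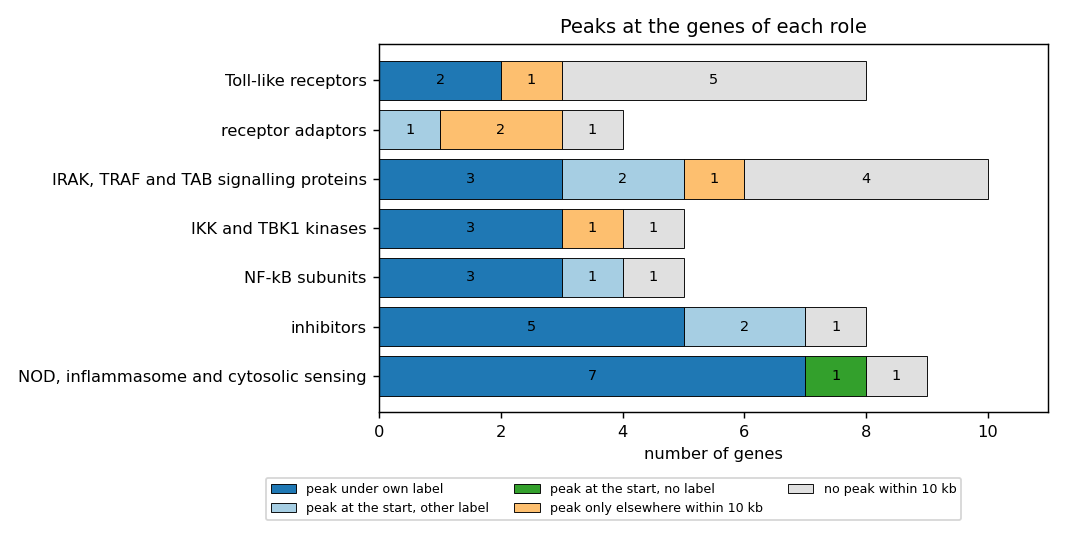
Number of genes (x axis) in each of the 7 roles (y axis), split by whether the gene had a peak under its own label, a peak over a start site under another label, one without a label, a peak only elsewhere in the gene or within 10 kb, or no such peak. The TAB1 gene stands under its own label, although its labelled peak lies 50417 bp away. The inhibitors have 5 genes with their own label and 2 under another, whereas 5 of the 8 Toll-like receptors have no peak within 10 kb.

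Among the Toll-like receptors, which sense microbial products at the cell surface or in endosomes, only TLR5 and TLR9 had a labelled peak. TLR9, a receptor for unmethylated bacterial DNA, had a peak at chr3:52259511-52260758 with a height of 31 and width of 1248 bp, and its apex lay 429 bp upstream of the start. TLR5, the receptor for flagellin, had a peak at chr1:223316163-223316801 with a height of 16 and width of 639 bp, with the apex 28 bp downstream of a start, in the 5′ UTR. That of TLR5 was the lowest of the 27 member peaks, and 0.196% of the other labelled peaks were lower. Many others shared its height, since 6.06% of them were lower than 17. TLR2, TLR4, TLR6, TLR7 and TLR8 had no peak in the gene or within 10 kb. The nearest peak lay 31814 bp from TLR2, 1154498 bp from TLR4, 36532 bp from TLR6, 60266 bp from TLR7 and 27458 bp from TLR8. TLR4, the receptor for lipopolysaccharide, was thus the member farthest from any peak. TLR1 had 1 unlabelled peak downstream of the gene, with a height of 22 and an edge 4312 bp from it.

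None of the 4 receptor adaptors had a peak under its own label. The start of MYD88, the adaptor of most Toll-like receptors, was nevertheless covered by a peak labelled ACAA1, a neighbouring gene of fatty acid oxidation. This peak at chr3:38177928-38181111 had a height of 47 and width of 3184 bp. Its apex lay 1232 bp upstream of a MYD88 start and 78 bp upstream of an ACAA1 start, so the nearer start was that of ACAA1. TIRAP, which bridges receptors to MYD88, had an unlabelled peak of height 19, and the apex lay 1697 bp upstream. TICAM1, the adaptor that signals independently of MYD88, had an unlabelled peak of height 19 downstream, with its edge 8271 bp from the gene. The nearest peak to TICAM2 lay 22929 bp away.

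Of the 10 IRAK, TRAF and TAB genes, which encode the kinases, ubiquitin ligases and scaffolds downstream of the adaptors, 3 had a peak under their own label. TAB2, a ubiquitin-binding scaffold of the TAK1 kinase, had a peak at chr6:149637812-149639910 with a height of 26 and width of 2099 bp. Its height was near the middle of the list, but 90.5% of the other labelled peaks were narrower. Besides this peak, TAB2 held 3 unlabelled peaks with heights of 48, 33 and 22, which lay 44199, 45740 and 82413 bp upstream of the canonical start, within longer transcripts of the gene. TRAF2, a ubiquitin ligase, had a labelled peak of height 18 and width 485 bp, with its apex 803 bp past an upstream start. A higher TRAF2 peak, with a height of 26 and width of 1201 bp, covered the canonical start but was labelled MIR4479. The peak labelled TAB1 had a height of 22 and width of 1035 bp. It lay 50417 bp upstream of TAB1 and 564 bp from a start of SYNGR1, so no peak was found within 10 kb of TAB1 itself.

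IRAK1 and IRAK4, the kinases that join MYD88, both had peaks at their starts under other labels. The IRAK1 start was covered by a peak labelled MIR718 at chrX:153284678-153287028, with a height of 17 and width of 2351 bp. The IRAK4 start was covered by a peak labelled PUS7L at chr12:44152137-44153328, with a height of 17 and width of 1192 bp. Both were low peaks, although that of IRAK1 was wide. IRAK3, an inhibitory family member, had its nearest peak 18966 bp away. The nearest peaks to TRAF3, TRAF6 and TAB3 lay 37281, 27343 and 173978 bp away.

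IRAK2 had no peak at its start, yet 6 peaks lay inside the gene, which spans 78827 bp. Of all coding genes, 0.657% held 6 or more apexes. The highest IRAK2 peak, at chr3:10230759-10231953 in intron 2, had a height of 62 and width of 1195 bp, and its apex lay 24860 bp downstream of the start. Its height exceeded that of 99.2% of all peaks in the list. The other 5 had heights of 23 and 31 in intron 2, 28 and 34 in intron 9 and 27 in the 3′ UTR. None of the 6 carried a label, so a count of labelled peaks leaves out the highest peak found in any member gene.

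**Figure D2:**
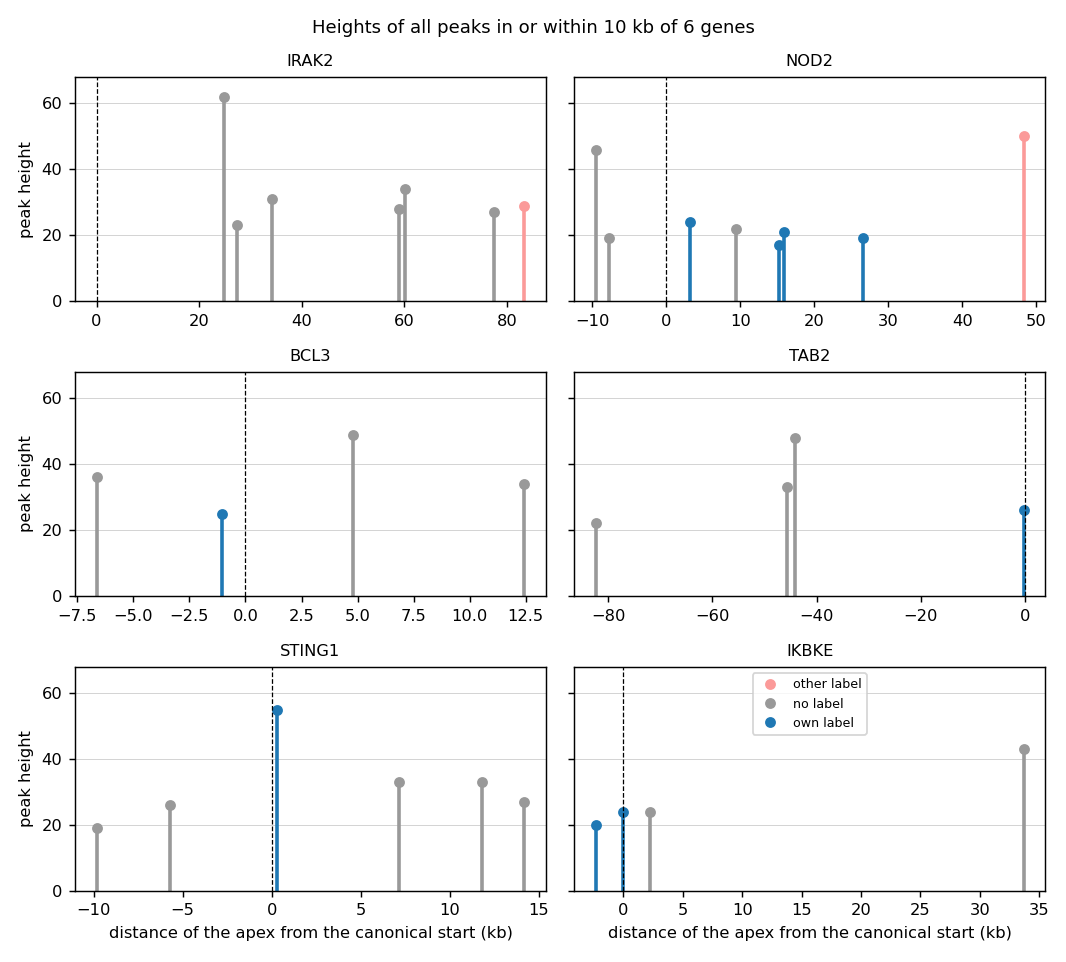
Height of every peak (y axis) in or within 10 kb of 6 member genes against the distance of its apex from the canonical start site in kb (x axis, negative is upstream), coloured by whether the peak carried the gene's own label, another label or none. The IRAK2 peak of height 62 and the BCL3 peak of height 49 are unlabelled, whereas the STING1 peak of height 55 stands at the start under its own label.

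Labelled peaks were present at 3 of the 5 IKK-type kinase genes. IKBKG, the regulatory subunit of the IKK complex also called NEMO, had a peak at chrX:153769950-153771783 with a height of 33 and width of 1834 bp. Its apex lay 924 bp past an upstream start. IKBKB, the catalytic subunit of the canonical pathway, had a peak of height 29 and width 1416 bp, with the apex 8 bp upstream of a start. IKBKE, a kinase related to TBK1, had 2 labelled peaks. The one at its start had a height of 24 and width of 1720 bp, and the other, 2326 bp upstream, had a height of 20 and width of 764 bp. An unlabelled peak of height 24 covered an internal IKBKE start. CHUK, the partner of IKBKB, had 1 peak nearby, labelled ERLIN1, with a height of 19 and its edge 1854 bp from the gene. TBK1, the kinase that activates interferon regulatory factors, had its nearest peak 46790 bp away.

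Among the 5 NF-kB subunit genes, 3 had a peak under their own label, with heights from 26 to 35. RELB, a subunit of the non-canonical pathway, had a peak at chr19:45504744-45505625 with a height of 35 and width of 882 bp. Its apex lay in intron 1, 524 bp downstream of the start. The edge of the peak, at 45504744, stopped just short of the start of the gene at 45504719. NFKB2, the gene of p100 and p52, had a peak at chr10:104153508-104155556 with a height of 31 and width of 2049 bp. This peak was wider than 89.6% of the other labelled peaks and covered the canonical start as well as upstream starts, with the apex 1434 bp upstream of the former. RELA, the gene of p65, had a peak at chr11:65429916-65431513 with a height of 26 and width of 1598 bp. An unlabelled peak of height 39 lay downstream of RELA, nearer to SIPA1. REL, the gene of c-Rel, had a peak over its start that was labelled LINC01185, a long noncoding RNA. It had a height of 22 and width of 1520 bp, and a second peak of height 20 under the same label lay in intron 1. NFKB1, the gene of p105 and p50, had no peak within 142841 bp.

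The inhibitors had the highest median height and width of any role. The 5 labelled peaks had a median height of 35 (range 25 to 47) and a median width of 1801 bp (range 1445 to 2727 bp). These medians rest on 5 peaks and were not tested against the other roles. NFKBIA, which encodes the main I-kappa-B protein, had a peak at chr14:35872719-35874523 with a height of 47 and width of 1805 bp, higher than 92.4% of the other labelled peaks. TNIP1, a ubiquitin-binding partner of TNFAIP3, had a peak of height 37 and width 1445 bp. NFKBIE had a peak at chr6:44230877-44233603 with a height of 35 and width of 2727 bp, the widest of the 27. Its apex lay 1088 bp into the gene, in intron 1, and 96.4% of the other labelled peaks were narrower.

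NFKBIZ and BCL3, atypical nuclear I-kappa-B proteins, had lower peaks. That of NFKBIZ had a height of 26 and width of 1485 bp, and that of BCL3 had a height of 25 and width of 1801 bp. BCL3 also had an unlabelled peak of height 49 and width 1614 bp in intron 2, higher than its labelled one. The start of TNFAIP3, which encodes the ubiquitin-editing enzyme A20, was covered by a peak labelled WAKMAR2 at chr6:138187260-138189574. This peak had a height of 47 and width of 2315 bp, with the apex 13 bp upstream of a start. The start of NFKBIB was covered by a peak labelled SIRT2 at chr19:39389664-39391014, with a height of 47 and width of 1351 bp. NFKBIA, TNFAIP3 and NFKBIB thus shared a height of 47, although only the first had its own label. TNIP2 had its nearest peak 29220 bp away.

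Of the 9 genes of NOD proteins, inflammasomes and cytosolic sensing, 7 had labelled peaks, with heights from 17 to 55. STING1, the adaptor that responds to cyclic dinucleotides made from cytosolic DNA, had the highest peak of the 27. It lay at chr5:138860630-138862561 with a height of 55, a width of 1932 bp and a total signal of 40447. Its height exceeded that of 97.2% of the other labelled peaks and its width that of 87.3%. Around it lay 5 unlabelled peaks, with heights from 19 to 33, of which 1 had its apex in the 3′ UTR. MAVS, the mitochondrial adaptor of the RNA sensors, showed the opposite shape, with a height of 18 over a width of 1743 bp. PYCARD, the inflammasome adaptor also called ASC, had a height of 23 and width of 1775 bp.

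NLRP3 and NLRP1, inflammasome sensors, had peaks of height 29 and 22 and of width 1003 and 634 bp. NOD1, a sensor of bacterial peptidoglycan, had a peak of height 24 and width 1406 bp at its start. NOD2, its relative, was labelled on 4 narrow peaks, the most of any member. Their heights were 24, 17, 21 and 19 and their widths 749, 377, 525 and 428 bp, in introns 1, 3, 3 and 7. The first covered an alternative start, with its apex 3211 bp past the canonical one, and no peak covered the canonical NOD2 start. An unlabelled peak 9504 bp upstream of the canonical start had a height of 46 and width of 1462 bp, but lay closer to SNX20. RIPK1, a kinase of cell death and NF-kB signalling, had an unlabelled peak over a start at chr6:3068366-3069574, with a height of 23 and width of 1209 bp. RIPK2, the kinase that NOD1 and NOD2 engage, had its nearest peak 110698 bp away.

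**Figure D3:**
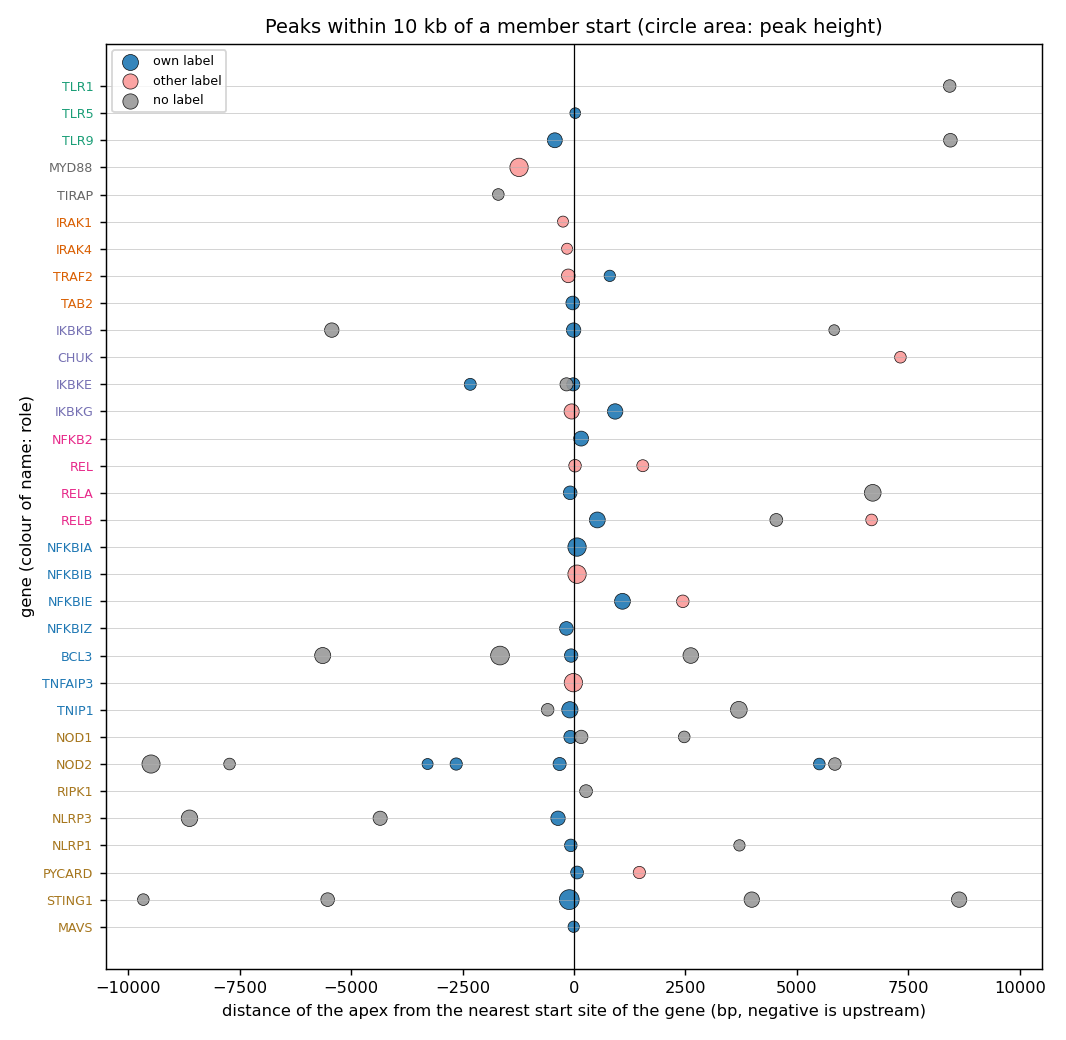
Peaks with an apex within 10 kb of a start site of a member gene. The x axis gives the distance from the nearest start site of that gene in bp (negative is upstream), the y axis the gene with its name coloured by role, the circle area the height, and the circle colour whether the peak carried the gene's own label, another label or none. Most own-label circles stand near 0, and those of MYD88, TNFAIP3 and NFKBIB are large circles under another label.

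Across the members, 2 of the 23 labelled genes, IKBKE and NOD2, had more than 1 labelled peak. This share of 8.7% (2.42 to 26.8%) stood beside 8.42% of the other labelled genes. In all, 83 pairs of a member and a peak in the gene or its 10 kb flanks were found, of which 26 had the own label, 18 another label and 39 none. The 7 peaks that covered a member's start under another label or none had heights from 17 to 47 with a median of 23, and widths from 1192 to 3184 bp around a median of 1520 bp. Added to the 27 labelled peaks, they gave medians of 24.5 for height and 1430.5 bp for width.

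The second question was whether these peaks differed in size from those at other genes. The 27 member peaks had a median height of 25 (95% interval 22 to 31), with a range from 16 to 55, and the other 7142 labelled peaks had a median of 26. The log2 ratio of the medians was -0.06 (-0.24 to 0.25), so no difference in height was detectable with 27 peaks. Of the 27 members, 10 exceeded the median height of the other labelled peaks, which is 37% (21.5 to 55.8%). The upper quartile of the other labelled peaks was exceeded by 3 of 27, which is 11.1% (3.85 to 28.1%) beside 23.2% of those peaks. STING1, NFKBIA and TNIP1 were these 3.

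In width, the members had a median of 1416 bp (764 to 1775 bp), against 1108 bp for the other labelled peaks. The ratio was 1.28, with a log2 ratio of 0.35 (-0.54 to 0.68) whose interval includes 0. Of the 27 peaks, 11 were wider than the upper quartile, which is 40.7% (24.5 to 59.3%) beside 25.0% of the other labelled peaks. The members spread to both sides, from the wide peaks of NFKBIE, TAB2, NFKB2, STING1, IKBKG and NFKBIA to the narrow ones of NOD2 and TRAF2. The median total signal was 12852 (5538 to 16026), against 10074 for the others, and 18 of 27 members exceeded the latter.

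**Figure D4:**
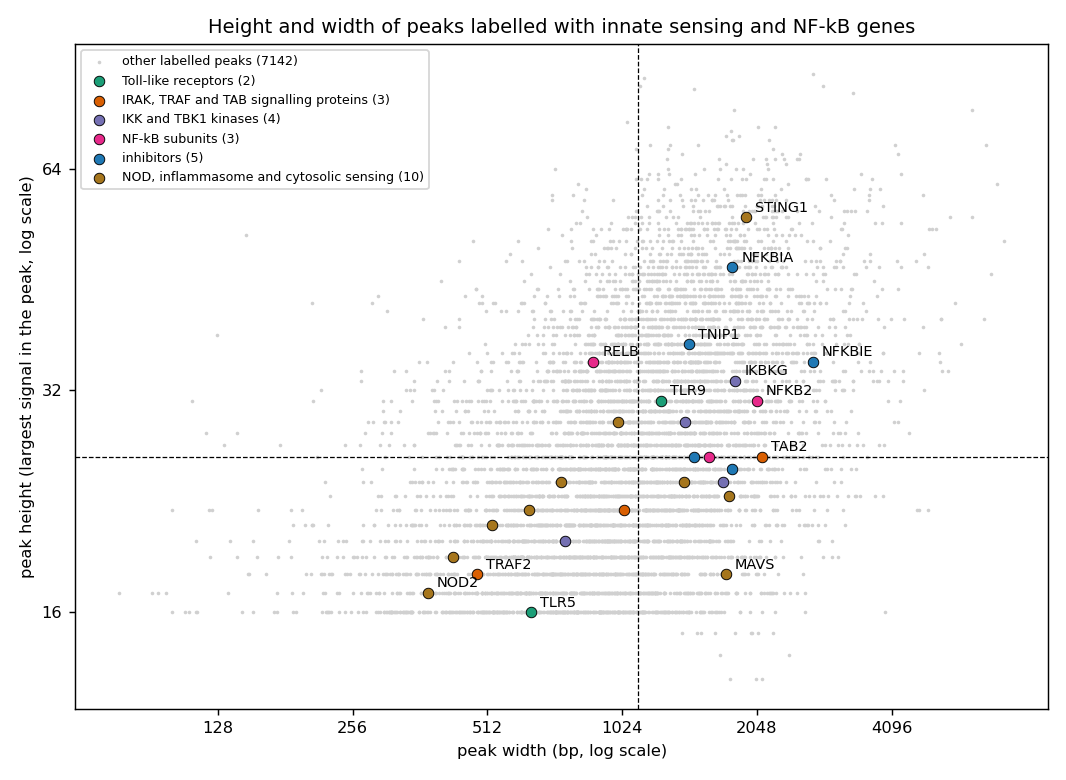
Height (y axis, log scale) against width in bp (x axis, log scale) of the 27 member peaks, coloured by role, over the other 7142 labelled peaks in grey. Dashed lines mark the medians of the other labelled peaks, 26 and 1108 bp. STING1 and NFKBIA stand at the upper right, and TLR5, TRAF2 and the narrowest NOD2 peak at the lower left.

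A further question was what sequence the member peaks shared. Both strands were searched for motifs in the 200 bp to each side of the apex. The kappa-B consensus matched in 9 of 27 member peaks, 33.3% (18.6 to 52.2%), and in 17.3% of the other labelled peaks. These 9 belonged to NFKBIZ, TNIP1, IKBKB, TRAF2, NFKB2, NFKBIA, PYCARD, NOD2 and BCL3. The lower end of the members' interval lay just above the value of the other peaks. Over whole peaks, the shares of members and others were 51.9% and 45%, and around the centre of the peak instead of its apex 18.5% and 20.2%, so the direction depended on where the window was placed.

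GGAAGT, a motif of ETS factors such as SPI1, matched in 16 of 27 member peaks, 59.3% (40.7 to 75.5%), against 36.6% of the others. Within 100 bp of the apex the share was 48.1% (30.7 to 66%) against 25.4%. Over whole peaks it was 77.8% (59.2 to 89.4%) against 61.6%, and around the peak centre 44.4% (27.6 to 62.7%) against 31.9%. For whole peaks and for the centre, the members' interval included the value of the others. AGGTCA, the core retinoid receptor motif, matched in 3 of 27, 11.1% (3.85 to 28.1%), against 16.6%, but over whole peaks in 48.1% against 42.2% and around the peak centre in 18.5% against 16.4%. A direct repeat of that motif with a spacing of 1, 2 or 5 bases, with A or G accepted at position 1 and G or T at position 3 of each copy, was found in 0 of 27 member peaks, which allows a share of up to 12.5%, and in 0.658% of the others. GGGCGG, an SP1-type motif, matched in 17 of 27, 63% (44.2 to 78.5%), against 76.2%. TTGCNNAA, a C/EBP-type motif, matched in 4 of 27, 14.8% (5.92 to 32.5%), against 10.3%, but over whole peaks in 25.9% against 28.3% and around the centre in 7.41% against 8.51%. For AGGTCA and TTGCNNAA the direction thus turned with the window. The median GC content of the windows around the apex was 61.1% (56.6 to 72.1%) for members and 64.3% for the other labelled peaks. STING1, with the highest member peak, had no match of any of these motifs within 200 bp of its apex. The same held for NLRP1 and TAB2.

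**Figure D5:**
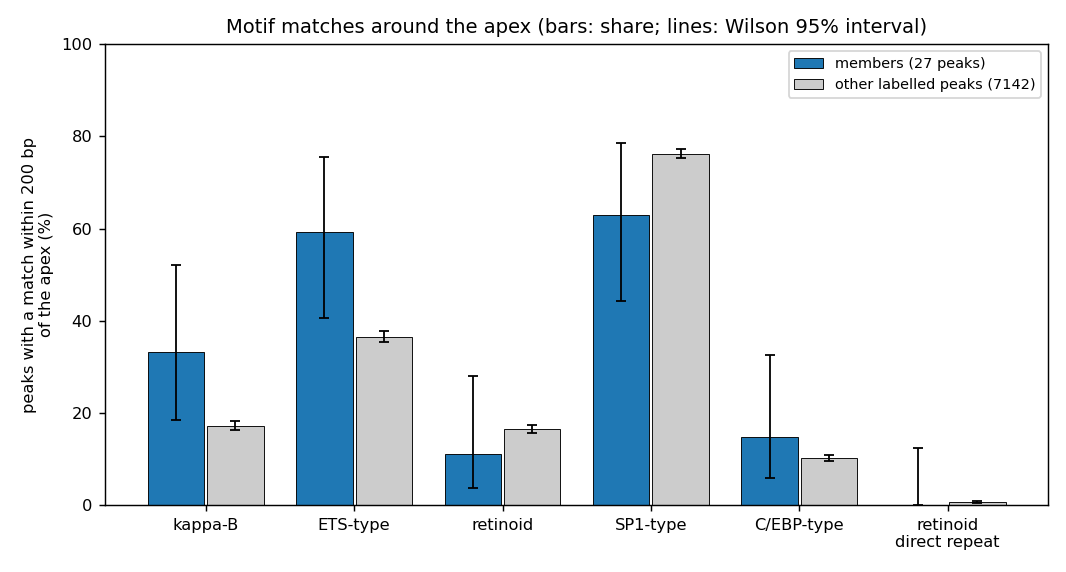
Share of peaks with a motif match within 200 bp of the apex (y axis, %) for the motifs named on the x axis, in the 27 member peaks (blue) and the other 7142 labelled peaks (grey). Lines are Wilson 95% intervals, and the kappa-B and ETS-type shares of the members, 33.3% and 59.3%, stand above those of the other peaks.

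Kappa-B matches were then counted over the whole peak, in the 32 peaks of 28 genes searched for the sequences above. Of these genes, 18 had a match, and the 57 matches formed 50 clusters that did not overlap. All 7 inhibitors searched had a match, as did 3 of 4 NF-kB subunits, 3 of 4 IRAK, TRAF and TAB genes and 2 of 3 IKK-type kinases, against 0 of 2 Toll-like receptors and 3 of 8 sensing genes. By peak, 14 of the 27 labelled member peaks held a match, 51.9% (34 to 69.3%), near the 45% of the other labelled peaks, and the counts by role were not tested. NFKB2 had the most, with 10 matches over its 2049 bp. Of the matches printed above, that of NFKB2 was centred 17 bp and that of TNIP1 37 bp upstream of the canonical start. The match of REL lay 13 bp from the apex of its peak and that of TNFAIP3 lay 36 bp from it, whereas that of NFKBIA lay 754 bp away. A wider peak offers more letters to search, so these counts are not comparable between peaks of different width.

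Other genes of the pathway were taken from lists of names, which were chosen with earlier results of these data known. Their shares are given beside the 30.0% of coding genes with a peak under their own label. They are a description, and no excess can be drawn from them. Of 36 further signal carriers, 26 had a labelled peak, which is 72.2% (56 to 84.2%), with a median height of 33. The highest belonged to MAP3K3, SHARPIN and MAP3K14 with 63, 62 and 57, and the widest to IRF5, SHARPIN and IRF1 with 2746, 2671 and 2575 bp. MAP3K14 encodes the kinase of the non-canonical pathway, also called NIK. Of 23 further inhibitors, 12 had a labelled peak, which is 52.2% (33 to 70.8%), with a median height of 29. The highest belonged to CISH, CYLD and SIGIRR with 53, 50 and 40, and the widest to SIGIRR, CISH and PELI3 with 3023, 2459 and 2204 bp.

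Of 25 further receptors and co-receptors, 7 had a labelled peak, which is 28% (14.3 to 47.6%) and close to the 30.0% of coding genes, with a median height of 22. The highest belonged to CGAS, NLRC3 and UNC93B1 with 43, 33 and 25, and the widest to UNC93B1, CGAS and NLRC3 with 1964, 1475 and 1108 bp. CGAS encodes the enzyme that makes the ligand of STING1. Of 35 genes known as NF-kB targets, 15 had a labelled peak, which is 42.9% (28 to 59.1%), with a median height of 26. IER3, ICAM1 and JUNB were highest with 48, 39 and 37, and JUNB, GADD45B and IER3 widest with 5858, 5231 and 3148 bp.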

How the data were processed

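Cut&Run libraries of U937-PR9 cells were sequenced as single-end reads. According to the study, the authors used Trimmomatic for trimming, Bowtie2 for alignment to hg19, SAMtools for removing duplicates and SEACR with the paired control for peak calling, and kept peaks reproducible across 2 replicates at an IDR below 0.05. Versions are not given in the sources used here. The authors deposited a total signal and a score for each peak. The score was read as the largest signal in the peak, called height here. Under this reading the total was below height times width in all 15412 peaks, which allows the reading but does not prove it. Whether the signal was normalized, or pooled over replicates, is not stated in the sources used here. Widths and gene labels are also as deposited. The list was attributed to the induced anti-PML::RARA libraries from its name and its number of peaks, since no sample label names it. No column of other samples was present. Some items are not reported here.

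Start sites, introns and UTRs came from GENCODE release 44 mapped to GRCh37, which has the coordinates of hg19, and sequences from that genome. Of 6546 labels, 6381 occur in it, and so do all 49 members. In 34 peaks, 0 of them of members, the apex interval lacked its end, and its start was used. Medians and shares were compared without a test, and the interval calculations and motif search were tested on simulated data. The members and gene lists were chosen with earlier results of these data known. Every member was named with its values, and the further lists were given by counts and their 3 highest and 3 widest peaks. Alternatives were other label rules, 1 peak per gene, merged neighbours, chromosomes 1 to 22, classes of width or height and other motif windows. Tables were made with pandas 2.3.3, intervals with scipy 1.17.1 and numpy 2.4.6, figures with matplotlib 3.10.9 under Python 3.11.15, and sequences were read with samtools 1.23.1 and pysam 0.24.0.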

Additional observations from a re-analysis of the deposited data

How the results depend on the processing

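Of 44 alternative settings, 39 left the value within its interval or the count close to the original one, and 7 of the 44 were added after seeing the data. The 23 labelled genes became 14 when peaks below a height of 25, the median of all peaks in the list, were left out. The same cut was not applied to the other coding genes, so this count has no share to be read beside it. The log2 ratio of median heights, -0.06, became 0.35 with total signal in place of height. The difference in the share with a kappa-B match was 16 percentage points around the apex and -1.7 around the peak centre. For the direct repeat, it was -1.89 percentage points over whole peaks and -0.784 around the centre. Members had 0 of 27 matches in each window, so only the share of the other peaks changed. The log2 ratio for width, 0.35, ranged from 0.12 with means of log2 values to 0.38 with the widest peak of each gene. Within classes of height it was 0.15. Leaving out the TAB1 peak gave log2 ratios of -0.03 for height and 0.37 for width. No paired analysis was possible because replicates have no values of their own here, nor could a replicate be left out. With 27 peaks and unknown depth, only large differences could be detected.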
